A study of Mus musculus with 6 samples.

Results

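The 32 genes described here encode the enzymes and adaptors of histone acetylation: 18 erasers (11 zinc-dependent deacetylases, Hdac1 to Hdac11, and 7 sirtuins), 10 writers (acetyltransferases) and 4 readers (bromodomain proteins). They were taken by symbol from the 24254 gene rows of the deposited expression table, and a row was found for each of the 32. The table covers 6 RNA-seq libraries of mouse oocytes at metaphase II, the arrest at which the egg awaits the sperm. The IVM group (3 libraries) holds oocytes matured in culture, in vitro, and the IVO group (3 libraries) oocytes matured in vivo. The labels name no strain, age, hormone treatment or culture medium, and do not say whether libraries came from separate animals. The p-values set the difference between groups against the spread of libraries within each group. That spread may be technical, so the p-values may not speak for other animals. The series title asks how maturation in culture changes the oocyte's metabolism and gene expression.

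Acetyl groups on histone lysines are added by acetyltransferases from acetyl-CoA, removed by zinc-dependent deacetylases or by sirtuins, which consume NAD, and bound by bromodomains. In the mouse oocyte, histones lose much of their acetylation as meiosis resumes, and transcription is silent at metaphase II. Messenger RNA of the egg is stored maternal transcript, made during growth and partly degraded during maturation.

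Values are FPKM, fragments scaled to transcript length and library size, so levels can be set side by side between genes. Differences are IVM minus IVO in log2(FPKM + 1), a scale on which changes of weakly expressed genes come out too small. Summed FPKM was 353438 to 364983 in IVM libraries and 394233 to 402054 in IVO libraries; the number of reads behind them is unknown, and counting error is not given. Of 10 egg markers, all had a mean of at least 1 FPKM, with sums of 13127.4 to 13544.4 FPKM in IVM and 8297.6 to 10233.5 in IVO, and Gdf9, an oocyte growth factor gene, was at 7946 to 8707 FPKM in IVM and 6380 to 7465 in IVO. Of 16 cumulus and granulosa markers, 8 had a mean of at least 1 FPKM and 1, Areg, was at 0 in every library; their summed level was 23.4 to 48.1 FPKM in IVM and 20.3 to 51.3 in IVO. The 7 oviduct markers, of which 3 reached a mean of 1 FPKM and none was at 0 throughout, summed to 221.3 to 248.4 FPKM in IVM and 264.0 to 283.4 in IVO. None of 5 blood and immune markers reached a mean of 1, none was at 0 throughout, and their sum was 0.678 to 2.51 FPKM in IVM and 0.713 to 3.51 in IVO. Whether these marker transcripts came from other cells or from the oocytes, and the part of such cells in the results below, was not tested. In bulk libraries a smaller share of contributing cells and less RNA per cell cannot be told apart.

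Stored egg transcripts are controlled through their 3′ ends, so the sites of polyadenylation are shown for a selection of the genes. A cytoplasmic polyadenylation element (CPE), the U-rich motif bound by CPEB proteins that marks a stored mRNA for tail lengthening during maturation, lies upstream of the polyadenylation hexamer. The annotated transcript strand was searched for the hexamers AATAAA and ATTAAA in the last 50 bases of the 3′ UTR and for the CPE letters TTTTAT and TTTTAAT in the 100 bases upstream of the hexamer. The letters are those of GENCODE M21 transcripts (GRCm38), given 5′ to 3′ as DNA, and the 3′ ends used in eggs may differ from the annotated ones. In 3 genes the window shows the CPE in capitals, and in Sirt4 the CPE and the hexamer both:
Brd1 (chr15:88687123-88687152, minus strand): gcctaatcatatTTTTATtttaaagctaaa
Sirt1 (chr10:63319052-63319081, minus strand): acaaaaacagtgTTTTATacttgtatcttg
Sirt4 (chr5:115478025-115478054, minus strand): ttTTTTAATtattagccaaatAATAAAtta

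The next 6 windows are of genes whose level differed, or whose close relative's did. No CPE letters were found in them wholly upstream of the hexamer, which is in capitals. Ep300 and Crebbp, not shown here, had a hexamer and no CPE as well. In Brdt the letters TTTTAAT run 2 bases into the hexamer; such overlaps, found in 2.13% of the tested genes with an annotated 3′ UTR, are not among the CPEs counted here:
Kat6a (chr8:22943222-22943251, plus strand): taacataaaaaaAATAAAttatgttgagcc
Kat6b (chr14:21672097-21672126, plus strand): attttaacataaAATAAAttatgatgagcc
Kat7 (chr11:95274263-95274292, minus strand): ctgtatctactcAATAAAgcatgttctctg
Brdt (chr5:107387029-107387058, plus strand): tttctactttttaATTAAAaactttatatg
Kat2a (chr11:100704751-100704780, minus strand): ctcggagggaacAATAAAgctttttttttc
Sirt7 (chr11:120618374-120618403, minus strand): tgagcaagtcttATTAAAcatctctcaatt

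Over all 7222 tested genes with an annotated 3′ UTR, 81.5% had a hexamer in the searched stretch and 18.7% also a CPE. Of the 19 tested acetylation genes, 18 had a hexamer and 5 a CPE, among them Brd1, Sirt1 and Sirt4. Across all tested genes the CPE letters were found in 10.5% of the 1497 higher in IVM, 18.9% of the 1496 lower and 21.5% of the 4229 not past the threshold, given as a description. Kat6a and Kat6b, encoded by paralogous genes, share 21 of the 30 letters shown, compared position by position, the most among 231 pairs of such windows (median 12), and the next pair, Crebbp and Hdac8, shares 20.

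**Figure D1:**
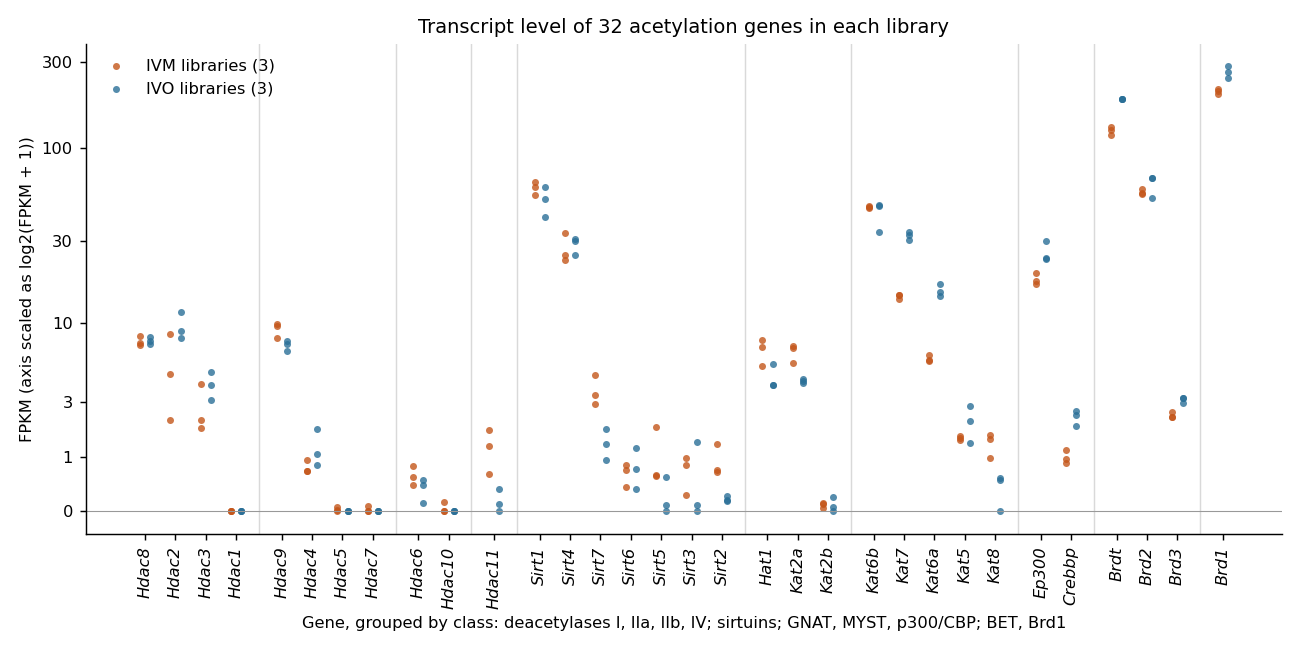
FPKM of each of the 32 genes in every library, on an axis scaled as log2(FPKM + 1) and labelled in FPKM, with IVM points left of IVO points and genes grouped by class. Brd1 and Brdt stand highest, at 198.6 to 284.4 and 118.8 to 188.3 FPKM, and Hdac1 is at 0 in all 6 libraries.

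In IVM 8 genes had a mean of at least 10 FPKM, 13 a mean from 1 to 10 and 11 a mean under 1; in IVO the numbers were 9, 11 and 12. The order of the most abundant was Brd1, Brdt, Sirt1, Brd2 and Kat6b in IVM and Brd1, Brdt, Brd2, Sirt1 and Kat6b in IVO; among Sirt1, Brd2 and Kat6b, neighbours overlapped in IVO, as did Sirt1 and Brd2 in IVM. Brd1 ranked 249 of all gene rows by its mean over the libraries, and Brdt 407. The 4 readers summed to 404.7, 390.9 and 375.1 FPKM in the IVM libraries, against 543.4, 523.4 and 488.6 in the IVO libraries. The 10 writers summed to 102.6, 103.9 and 101.2 in IVM, against 131.2, 141.4 and 118.3 in IVO. The 18 erasers summed to 122.2, 111.6 and 129.7 in IVM, against 112.4, 100.1 and 126.7 in IVO. Sums of readers and writers were thus lower in each IVM library than in any IVO library, and sums of erasers overlapped. These sums follow their most abundant genes, such as Brd1 and Brdt among readers. Those of erasers include the mitochondrial sirtuin Sirt4, at a mean of 27.1 FPKM in IVM and 28.7 in IVO. Hdac1 entered them at a listed 0, which can be a failed estimate. Among writers the MYST and p300/CBP classes were lower in IVM, and the GNAT class was higher (13.4 against 8.80 FPKM by mean).

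Of the 32 genes, 19 had a mean of at least 1 FPKM and were tested (limma, Benjamini-Hochberg adjusted p under 0.05 over 7746 genes). In IVM 6 were lower, Kat6a, Kat7, Crebbp, Brdt, Ep300 and Brd1, and 2 were higher, Sirt7 and Kat2a. Of the 6, Crebbp reached the filter through the IVO libraries, with an IVM mean under 1 FPKM. Its call is counted here but not taken as a result. The 8 genes past the threshold are 42.1% of those tested, near the 41.0% of all tested genes. By direction, 31.6% were lower, where 20.4% of all tested genes were, and 10.5% were higher, where 20.6% were. The split over all genes varied with level. With the filter at a mean of 5 FPKM, 1392 of 4505 genes were lower and 835 higher, against 5 and 1 acetylation genes. Whether the acetylation genes differ from other genes of their level was not tested. The groups did not overlap for 10 of the 19 genes (52.6%), where 53.5% of all tested genes did not. The median log2 difference was -0.27 over the 19 genes and -0.02 over all 7746. By role, writers had 4 lower and 1 higher of 8 tested, readers 2 lower of 4, and erasers 1 higher of 7.

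**Figure D2:**
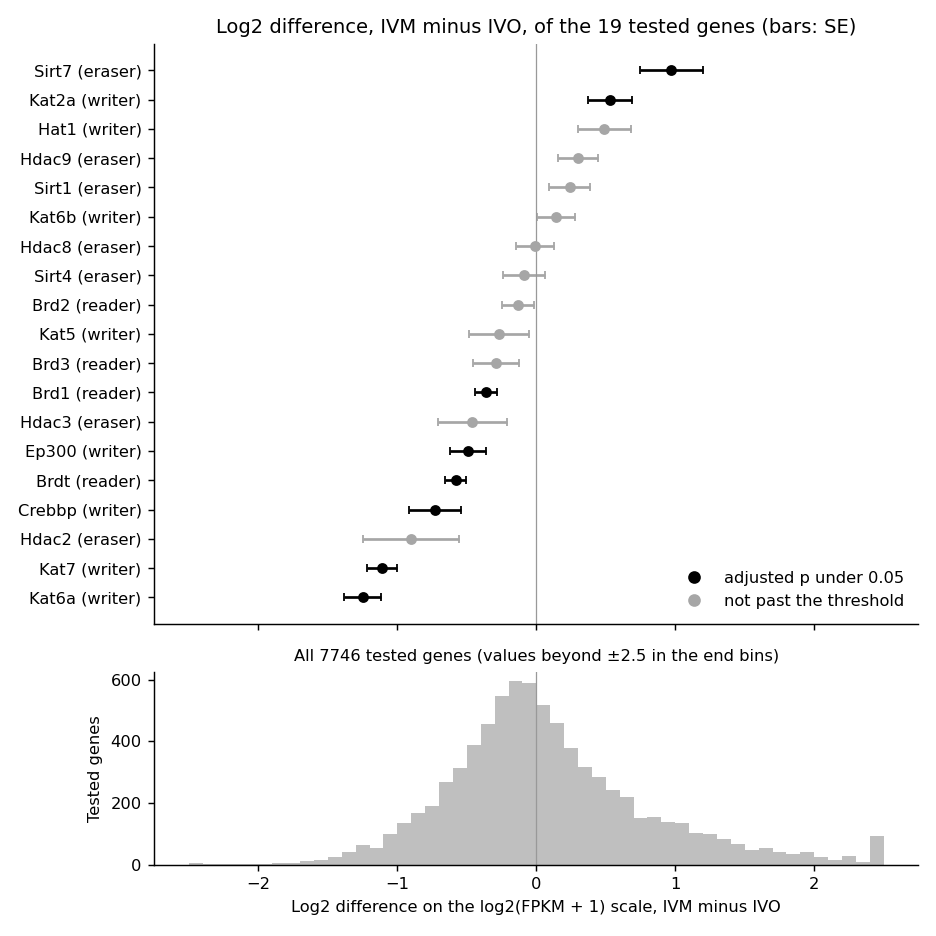
Log2 difference (IVM minus IVO, on the log2(FPKM + 1) scale) with its SE for the 19 tested genes, above a histogram of the same quantity over all 7746 tested genes. Kat6a, at -1.25, and Kat7, at -1.11, lie at the low end, and Sirt7, at 0.97, at the high end.

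The largest falls were those of 2 writers of the MYST family. Kat6a encodes the acetyltransferase MOZ, which modifies histone H3 (ENSMUSG00000031540.13, GRCm38 chromosome 8, 22859535 to 22943259). It had 5.74, 6.27 and 5.86 FPKM in IVM libraries 1 to 3, against 15.3, 17.0 and 14.5 in IVO libraries 1 to 3. All IVM values lay well below all IVO values, and the mean was 2.62-fold lower in IVM (log2 difference -1.25, SE 0.133, limma adjusted p = 0.000172).

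Kat7 encodes HBO1, the MYST enzyme that binds replication origins and acetylates histones H3 and H4 (ENSMUSG00000038909.16, chromosome 11, 95274259 to 95310246). It had 14.6, 14.7 and 13.9 FPKM in IVM, against 30.3, 33.9 and 32.4 in IVO. The groups were again far apart, and the mean was 2.24-fold lower in IVM (log2 difference -1.11, SE 0.107, limma adjusted p = 0.000105). Falls of at least 1 on the log2 scale that passed the threshold were 326, or 4.21%, of all tested genes. Both calls held under all 20 alternatives tried.

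The other MYST members did not pass the threshold, and the 5 genes of the family summed to 70.1 ± 0.714 FPKM (SD) over the 3 IVM libraries and 93.3 ± 8.79 over the 3 IVO libraries. Kat6b, the paralogue of Kat6a that encodes MORF, had 46.4, 46.5 and 47.6 FPKM in IVM, against 47.2, 47.9 and 33.9 in IVO (log2 difference 0.14, SE 0.137, limma adjusted p = 0.46). Only IVO replicate 3 stood apart, and without it the difference was -0.02. Kat5, which encodes the DNA-damage-linked enzyme Tip60, had 1.54, 1.46 and 1.60 FPKM in IVM, against 2.81, 1.38 and 2.17 in IVO. Its groups overlapped (log2 difference -0.27, SE 0.217, limma adjusted p = 0.347), and the gene overlaps Rnaseh2c on the opposite strand over 426 bases, so reads of these genes may be mixed.

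Kat8, the MOF enzyme that acetylates histone H4, lay below the filter, with 0.972, 1.51 and 1.63 FPKM in IVM, against 0, 0.536 and 0.488 in IVO. Its groups did not overlap, and with no filter on low values the difference of 0.84 had a limma adjusted p of 0.0495. The deposited table gives Kat8 one locus with Prss8.

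The genes of the coactivators p300 and CBP, large acetyltransferases of enhancers, both had a lower mean in IVM. Ep300, which encodes p300 (ENSMUSG00000055024.12, chromosome 15, 81585351 to 81652077), had 17.6, 19.6 and 17.0 FPKM in IVM, against 23.8, 30.0 and 24.0 in IVO. The groups did not overlap, with a mean 1.44-fold lower in IVM (log2 difference -0.49, SE 0.13, limma adjusted p = 0.015).

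Crebbp, which encodes CBP (ENSMUSG00000022521.10, chromosome 16, 4081328 to 4213997), had 0.942, 1.18 and 0.852 FPKM in IVM, against 1.95, 2.39 and 2.57 in IVO. Each IVM library was below each IVO library, and the mean was 2.32-fold lower (log2 difference -0.73, SE 0.189, limma adjusted p = 0.0138). Crebbp was the 1 tested gene of the 19 with a group mean under 1 FPKM, in IVM, and it reached the filter through the IVO libraries. Such a choice favours genes that differ, so the call of Crebbp is not taken as a result. Ep300 was the more abundant of the pair by far in every library.

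Median transcript length differed between the genes lower, higher and not past the threshold, though length did not order the genes singly. Kat6b (7699 bases) and Hdac9 (7940), not past the threshold, were longer than Kat7 (3560), Brdt (4745) and Brd1 (5152). Kat6a (9113), Ep300 (9566) and Crebbp (10820) were longer still. The longest annotated transcript had a median of 7132 bases over the 6 genes lower in IVM, 2386 over the 2 higher and 3250 over the 11 not past the threshold, against 3591, 2926 and 3247 for lower, higher and other genes of the whole table. With each library's trend with length removed, Ep300 and Crebbp were no longer past the threshold (limma adjusted p = 0.0933 and 0.0661). Kat6a, Kat7, Brdt and Brd1 remained past it. Over the alternatives, the adjusted p or q-value ranged from 0.00047 to 0.151 for Ep300 and from 0.000248 to 0.108 for Crebbp. The lowest of each was the q-value in the authors' deposited table. Without IVM replicate 1 or IVM replicate 3 the adjusted p of Ep300 was 0.0553 and 0.0557, and with libraries scaled to equal sums 0.0558.

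The GNAT writers summed to 13.4 ± 1.27 FPKM (SD) over the 3 IVM libraries and 8.80 ± 0.927 over the 3 IVO libraries, and Kat2a was higher in IVM. It encodes GCN5, the catalytic subunit of the SAGA and ATAC complexes (ENSMUSG00000020918.14, chromosome 11, 100704746 to 100712465). It had 6.98, 5.55 and 7.21 FPKM in IVM, against 4.36, 4.22 and 4.08 in IVO. Each IVM library was above each IVO library, with a mean 1.56-fold higher (log2 difference 0.53, SE 0.161, limma adjusted p = 0.0274). This call was lost without IVM replicate 1 (limma adjusted p = 0.102), without IVM replicate 3 (0.0914), without IVO replicate 2 (0.056) and under quantile normalization (0.0808), within a range of 0.0124 to 0.172 over the alternatives.

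Hat1, whose product acetylates newly made histone H4, had 7.86, 7.06 and 5.33 FPKM in IVM, against 5.50, 3.98 and 4.00 in IVO. The groups overlapped by a single library and the gene was not past the threshold (log2 difference 0.49, SE 0.193, limma adjusted p = 0.0702). It was past it under 5 alternatives: equal sums (limma adjusted p = 0.0295), upper quartile scaling (0.0421), sample weights (0.0323), without IVM replicate 3 (0.048) and without IVO replicate 1 (0.0375), within a range of 0.0295 to 0.572. The highest of these was the q-value of Hat1 in the authors' deposited table. The deposited table gives Hat1 one locus with 7 other rows. Kat2b, the PCAF paralogue of Kat2a, was at 0 to 0.204 FPKM in every library. It has an annotated pseudogene, Kat2b-ps, 95.1% identical over 2479 aligned bases, so its low values are uncertain.

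**Figure D3:**
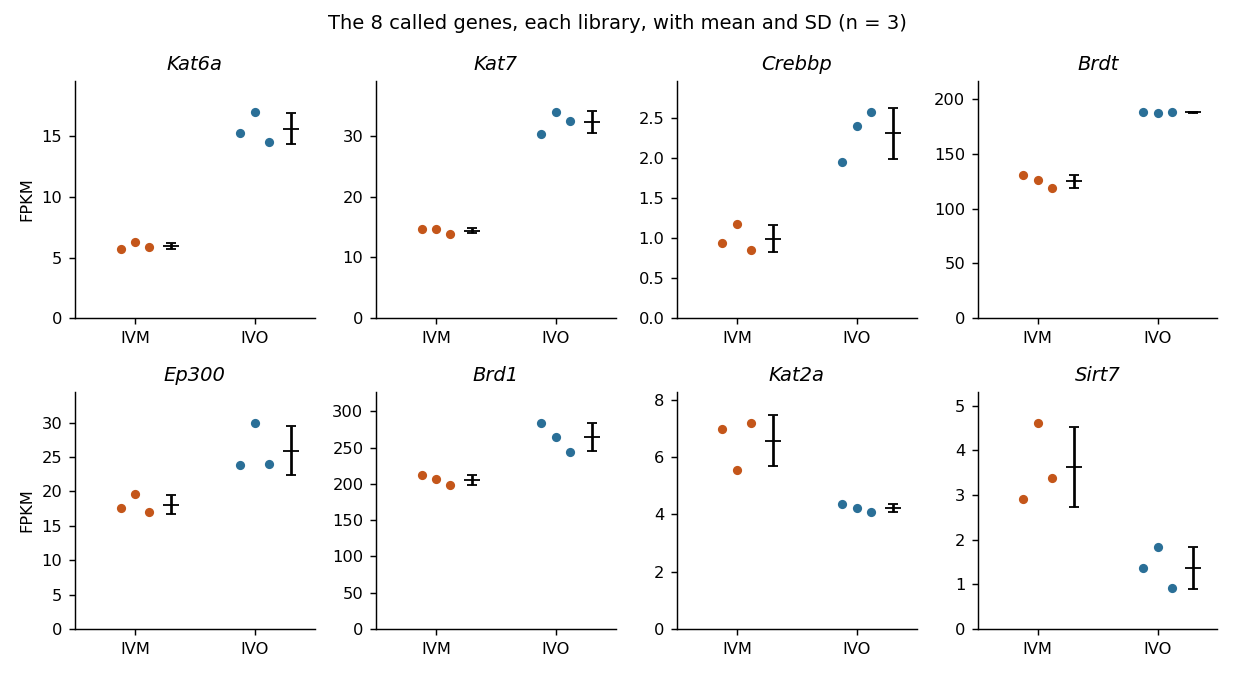
FPKM of the 8 genes past the threshold in each library (points), IVM left of IVO, with the mean and SD of 3 libraries beside them, on axes that start at 0. Kat6a, Kat7, Crebbp, Brdt, Ep300 and Brd1 are lower in every IVM library than in any IVO library, and Kat2a and Sirt7 are higher.

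Among the readers, both of the most abundant genes were lower in IVM. Brdt encodes a BET protein, with paired bromodomains, known in the mouse for its role in male germ cells (ENSMUSG00000029279.15, chromosome 5, 107331159 to 107387058). It had 130.7, 125.9 and 118.8 FPKM in IVM, against 188.3, 187.4 and 188.1 in IVO. The IVO libraries were within 1 FPKM of each other and all IVM libraries lay below them (mean 1.50-fold lower, log2 difference -0.58, SE 0.0741, limma adjusted p = 0.000384). The call held under all 20 alternatives.

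Brd1 encodes a bromodomain protein, also named BRPF2, that is the scaffold of acetyltransferase complexes built on HBO1 (Kat7) and MOZ or MORF (ENSMUSG00000022387.17, chromosome 15, 88687034 to 88734233). It had 212.5, 206.5 and 198.6 FPKM in IVM, against 284.4, 265.0 and 244.6 in IVO. Its groups did not overlap, and its mean was 1.29-fold lower (log2 difference -0.36, SE 0.0799, limma adjusted p = 0.0069). Under quantile normalization it missed the threshold (limma adjusted p = 0.0908, the highest over the alternatives; the lowest was 0.00234).

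The BET genes Brd2 and Brd3, which are expressed in many tissues, were not past the threshold. Brd2 had 59.1, 56.2 and 55.1 FPKM in IVM, against 67.8, 67.7 and 52.8 in IVO, with IVO replicate 3 below all IVM libraries (log2 difference -0.13, SE 0.115, limma adjusted p = 0.395). Without that library the difference of Brd2 was past the threshold (limma adjusted p = 0.0357; range over the alternatives 0.0357 to 0.968), and with libraries rescaled to the same sum its sign turned (0.01). Brd2 overlaps H2-DMa on the opposite strand over 316 bases. Brd3 had 2.33, 2.30 and 2.53 FPKM in IVM, against 2.97, 3.23 and 3.20 in IVO. Its groups did not overlap, and its difference was not past the threshold (log2 difference -0.29, SE 0.166, limma adjusted p = 0.2).

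Among the class I deacetylases, the nuclear enzymes of corepressor complexes, no gene was past the threshold, and the class summed to 15.5 ± 2.66 FPKM (SD) over the 3 IVM libraries and 21.3 ± 2.14 over the 3 IVO libraries. Hdac1 was listed at 0 in all 6 libraries. A listed 0 can be a failed estimate: a processed pseudogene, Gm10093, is 99.4% identical to Hdac1 over 1444 aligned bases and has no row in the table, and its part in the 0 was not tested. Hdac2, the close relative of Hdac1, had 4.72, 2.21 and 8.46 FPKM in IVM, against 8.08, 8.93 and 11.6 in IVO. Its IVM libraries differed widely among themselves, IVM replicate 3 lay within the IVO range, and the lower mean was not past the threshold (log2 difference -0.90, SE 0.346, limma adjusted p = 0.0648). Without IVM replicate 3 it was (limma adjusted p = 0.0141; range over the alternatives 0.00266 to 0.182, the lowest being the q-value in the authors' deposited table).

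Hdac3, the catalytic subunit of the NCoR corepressor complex, had 2.19, 4.01 and 1.88 FPKM in IVM, against 3.11, 4.90 and 3.98 in IVO, with overlapping groups (log2 difference -0.46, SE 0.251, limma adjusted p = 0.173). Hdac8, which removes acetyl groups from cohesin, had 7.31, 7.52 and 8.23 FPKM in IVM, against 7.66, 8.17 and 7.36 in IVO. It had the tested difference nearest 0 (log2 difference -0.01, SE 0.139, limma adjusted p = 0.97).

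Of the class IIa deacetylases, which shuttle between nucleus and cytoplasm, Hdac9 was the one above the filter. It had 9.80, 9.52 and 8.06 FPKM in IVM, against 6.66, 7.66 and 7.37 in IVO. Each IVM library was above each IVO library, and the difference was not past the threshold (log2 difference 0.30, SE 0.146, limma adjusted p = 0.134); with the length trend removed it was (limma adjusted p = 0.0255; range over the alternatives 0.0255 to 0.363). Hdac4 lay just under the filter, at 0.672, 0.663 and 0.930 FPKM in IVM, against 0.805, 1.83 and 1.07 in IVO, with overlapping groups. Hdac5 and Hdac7 were at 0 to 0.0511 and 0 to 0.0701 FPKM in IVM, and listed at 0 in each IVO library.

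The class IIb genes were low as well. Hdac6, the tubulin deacetylase, had 0.397 to 0.776 FPKM in IVM and 0.111 to 0.490 in IVO. Hdac10, a polyamine deacetylase, was listed at 0 in 5 libraries and at 0.125 in IVM replicate 2. Hdac11, the single class IV enzyme, had 1.29, 1.82 and 0.601 FPKM in IVM, against 0.330, 0 and 0.0923 in IVO. All IVM values of Hdac11 were above all IVO values, and with no filter on low values its difference of 0.94 had a limma adjusted p of 0.036. A gene model on the opposite strand, Gm44002, shares 594 bases with Hdac11, so reads of the 2 may be mixed.

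The sirtuins summed to 93.9 ± 7.89 FPKM (SD) over the 3 IVM libraries and 82.9 ± 13.5 over the 3 IVO libraries, led by Sirt1 and Sirt4. Sirt1, the nuclear sirtuin, had 64.8, 54.5 and 60.4 FPKM in IVM, against 51.9, 40.8 and 60.9 in IVO, with overlapping groups (log2 difference 0.24, SE 0.146, limma adjusted p = 0.227). It was past the threshold without IVO replicate 3, the highest IVO library (limma adjusted p = 0.0475; range over the alternatives 0.0475 to 0.907), and without IVO replicate 2, the lowest, the difference of Sirt1 was 0.09 (0.615). Sirt4, a mitochondrial sirtuin, had 24.9, 23.3 and 33.2 FPKM in IVM, against 31.0, 25.0 and 30.1 in IVO, and neither group stood above the other (log2 difference -0.09, SE 0.153, limma adjusted p = 0.68).

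Sirt7, a nucleolar sirtuin linked to ribosomal RNA transcription, was the eraser that rose (ENSMUSG00000025138.14, chromosome 11, 120618372 to 120625240). It had 2.90, 4.62 and 3.37 FPKM in IVM, against 1.36, 1.84 and 0.909 in IVO. All IVM libraries were above all IVO libraries, with a mean 2.65-fold higher (log2 difference 0.97, SE 0.227, limma adjusted p = 0.00874), and the call held under all 19 alternatives that gave a value. The deposited table gives Sirt7 one locus with the microRNA gene Mir6936.

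The other sirtuins were under a mean of 1 FPKM. Sirt2, which acts on tubulin and other cytoplasmic proteins, had 0.696, 1.35 and 0.657 FPKM in IVM, against 0.149, 0.137 and 0.218 in IVO. Its groups did not overlap, and with no filter on low values its difference of 0.68 had a limma adjusted p of 0.0331. Sirt5, a mitochondrial enzyme, had 0.583, 0.566 and 1.93 FPKM in IVM, against 0, 0.0860 and 0.548 in IVO, and did not overlap either. With no filter, Sirt5 was not past the threshold (limma adjusted p = 0.158), and it shares stretches at least 95% identical with 4 other annotated genes. Sirt3, the main mitochondrial deacetylase, ranged from 0.232 to 0.977 FPKM in IVM and from 0 to 1.40 in IVO, and the gene overlaps Ric8a on the opposite strand over 416 bases. Sirt6, a chromatin sirtuin, ranged from 0.362 to 0.797 FPKM in IVM and from 0.332 to 1.23 in IVO.

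Of the 13 genes below the filter, 11 are erasers, and 12 were above 0 in at least 1 library. Of these 12, 4 (33.3%) were higher in every IVM library than in any IVO library: Hdac11, Sirt2, Sirt5 and Kat8. Of all 8733 genes at such levels, 14.9% were. The opposite direction was not counted over all genes. IVM libraries held 7853 to 8029 genes with at least 1 FPKM and IVO libraries 7187 to 7327, so weakly expressed genes in general tended to be listed higher in IVM. No ratio of means is given for genes at these levels, and the log2 differences given for them above come from the fit with no filter.

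Close relatives were also compared by their log2 ratio of (FPKM + 1) within each library, which does not depend on scaling between libraries except through the added 1. For Kat6a over Kat6b the ratio was -2.82, -2.71 and -2.82 in IVM, against -1.56, -1.44 and -1.17 in IVO. The groups were apart, with a difference of -1.39 (exact two-sided permutation test, p = 0.1, the smallest that 3 against 3 allows; 0.15 adjusted over 6 pairs). For Kat7 over Kat5 the ratio was 2.62, 2.67 and 2.52 in IVM, against 3.04, 3.87 and 3.40 in IVO, a difference of -0.83 that also separated the groups (exact permutation p = 0.1, adjusted 0.15).

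For Ep300 over Crebbp the ratio was 3.26, 3.24 and 3.28 in IVM, against 3.07, 3.19 and 2.81 in IVO, a smaller difference of 0.23 (exact permutation p = 0.1, adjusted 0.15). Its size depended on the added 1, as Crebbp had a mean of 0.992 FPKM in IVM. With an added 0.1 the difference was 0.63, and with 0.01 it was 0.69. Brd2 over Brd3 overlapped between groups (difference 0.15, exact permutation p = 0.4). The ratio of Kat2a to Kat2b differed by 0.53 (exact permutation p = 0.1, adjusted 0.15), but Kat2b was near 0 and the sign turned with an added 0.01 in place of 1. Since Hdac1 was listed at 0, its ratio to Hdac2 reflects Hdac2 alone (difference 0.90, exact permutation p = 0.2).

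**Figure D4:**
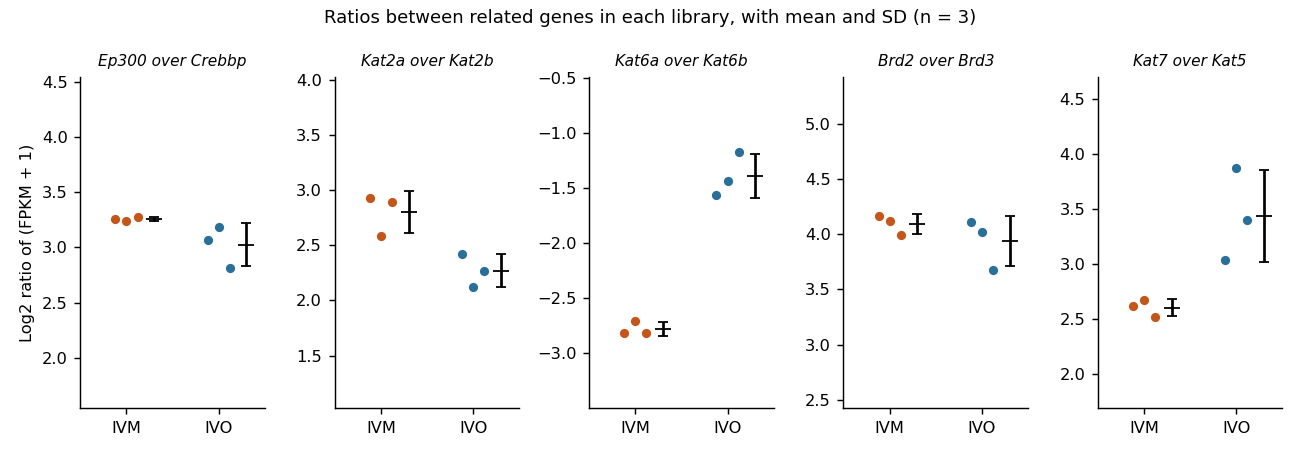
Log2 ratio of (FPKM + 1) between 5 pairs of related genes in each library, IVM left of IVO, with mean and SD of 3 libraries; each axis spans the same number of log2 units. The Kat6a over Kat6b panel shows the widest separation, at -2.78 ± 0.07 in IVM and -1.39 ± 0.20 in IVO.

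Partners of these enzymes were counted in 5 lists, set against all tested genes and not against genes of the same level. Of 27 tested partners of deacetylases in the Sin3, NuRD, CoREST, NCoR and Mier complexes, 12 were lower in IVM and 1 higher, 44.4% and 3.7%, where 20.4% and 20.6% of all tested genes were, with a median log2 difference of -0.28. Mier3, a scaffold that binds Hdac1 and Hdac2, had 11.8, 10.3 and 9.80 FPKM in IVM, against 36.4, 46.3 and 47.6 in IVO (log2 difference -1.93, SE 0.139, limma adjusted p = 3.04e-05). Chd4, the remodelling ATPase of NuRD, had 5.06, 6.09 and 5.01 FPKM in IVM, against 14.8, 16.9 and 15.9 in IVO (limma adjusted p = 0.000129). Both genes were lower in every IVM library than in any IVO library. Sap30l, of the Sin3 complex, fell by 1.00 on the log2 scale, and Arid4a, another Sin3 partner, rose by 0.91.

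Of 31 tested partners of acetyltransferases, 8 were lower and 6 higher, 25.8% and 19.4%, near the shares of all tested genes (median -0.03). Tada3, an adaptor shared by the SAGA and ATAC complexes, had 14.7, 13.4 and 14.0 FPKM in IVM, against 36.2, 42.9 and 41.5 in IVO (log2 difference -1.45, SE 0.113, limma adjusted p = 4.27e-05). Csrp2bp, also named Kat14, a subunit of ATAC with an acetyltransferase domain, had 17.0, 20.2 and 32.1 FPKM in IVM, against 6.59, 7.14 and 7.90 in IVO (log2 difference 1.51, SE 0.216, limma adjusted p = 0.00075). The ATAC subunits Dr1 and Zzz3 rose too, by 1.41 and 1.03 on the log2 scale. Genes of 1 complex thus lay in both directions.

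Of 26 tested readers outside the 4 described above, 8 were lower and 4 higher, 30.8% and 15.4% (median -0.10). Baz2a, Brwd3 and Baz1b, bromodomain genes, were lower, with log2 differences of -1.21, -1.03 and -1.02, and Smarca2, a SWI/SNF ATPase gene, was higher, with 1.14. Of 12 further acetyltransferases 6 were lower and 2 higher, 50% and 16.7%, where 20.4% and 20.6% of all tested genes were (median -0.31). Ncoa3, a nuclear receptor coactivator gene, had 64.5, 64.6 and 58.0 FPKM in IVM, against 126.7, 132.3 and 119.3 in IVO. It fell by 1.00 on the log2 scale (SE 0.0876, limma adjusted p = 6.74e-05). Ncoa1 and Clock were lower, with log2 differences of -0.90 and -0.85. Elp3, of the Elongator complex, counted among the 2 higher, had 1.92, 3.30 and 3.34 FPKM in IVM, against 0, 0.566 and 0.882 in IVO. It reached the filter only through the IVM libraries, so its pass is not taken as a result.

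Of 8 tested genes of acetyl-CoA and NAD supply, 1 passed (12.5%), higher in IVM, where 20.6% of all tested genes were. Slc25a1, the mitochondrial citrate carrier through which acetyl-CoA carbon leaves the organelle, had 3.66, 2.65 and 3.02 FPKM in IVM, against 0.879, 0.405 and 0 in IVO. It reached the filter only through the IVM libraries, a choice that favours genes that differ, so its pass is not taken as a result.

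**Figure D5:**
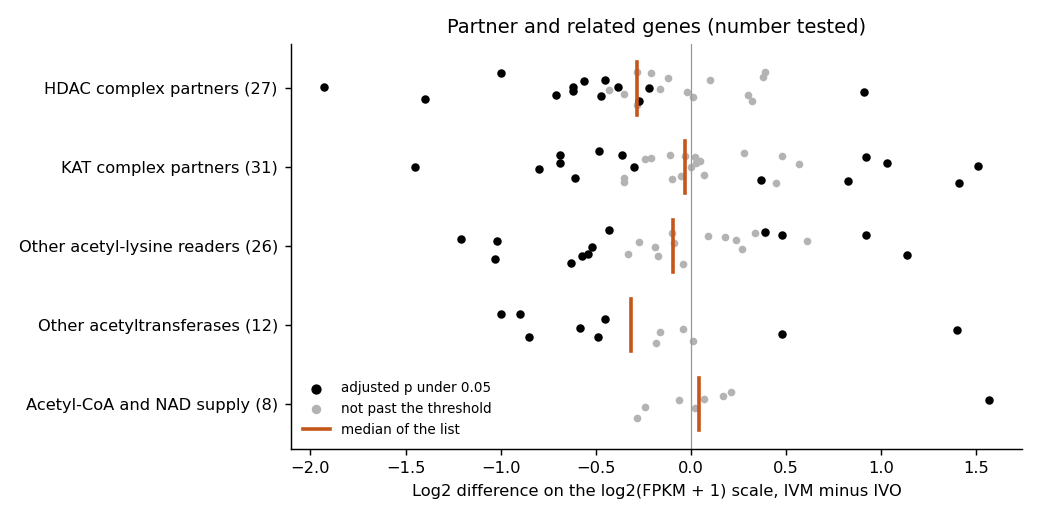
Log2 difference (IVM minus IVO, on the log2(FPKM + 1) scale) of each tested gene of the 5 lists, black where the adjusted p was under 0.05, with the median of each list as a bar. Deacetylase partners lie mostly left of 0, with a median of -0.28, and acetyltransferase partners spread to both sides around -0.03.

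In the authors' deposited table the q-value for IVM against IVO was under 0.05 for 9 of the 19 genes, 7 lower and 2 higher in IVM by mean FPKM, and for 44.7% of the 7746 tested genes. These were the 8 genes past the threshold above and Hdac2, whose q-value in the authors' deposited table was 0.00266. Below the filter, the q-value in the authors' deposited table was 0.0212 for Hdac11, 1.0 for Sirt2, 0.144 for Sirt5 and 0.189 for Kat8. In the 6 comparisons between single libraries of a group, no acetylation gene had a q-value under 0.05 in the authors' deposited table, where 15, or 0.194%, of the tested genes had one in at least 1 of them. With 1 library against 1, few genes can pass. Hdac2, at 2.21 FPKM in IVM replicate 2 and 8.46 in IVM replicate 3, did not, so the lack of calls does not show that libraries agreed.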

How the data were processed

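RNA of metaphase II oocytes was sequenced in 6 libraries, 3 per group, grouped by the titles. The authors' table holds, per the file headers, FPKM of each gene in each library with a p-value and q-values. Aligner, estimator, annotation, strandedness and poly(A) selection are not stated in the sources used. The submitters' processing notes name mm9, but the loci of all 32 genes overlap the gene of that name in GRCm38, whose GENCODE M21 coordinates are printed. Deposited log2 ratios were left aside.

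Genes with a mean of at least 1 FPKM were tested with limma 3.58.1 (R 4.3.3) on log2(FPKM + 1), the variance prior following mean level (two-sided, Benjamini-Hochberg adjusted, threshold 0.05). Ratios were tested with SciPy 1.17.1. Near-identical copies (at least 95% identity over 300 bases) were sought among annotated transcripts with minimap2.

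Members and lists were chosen with earlier results of these data known. All members are named. From each list the rule took up to 4 called genes with the largest difference. Alternatives covered pseudocount, filter, scaling, variance model, weights, block, left-out libraries, threshold and the authors' q-values. After seeing the data, removing the length trend and leaving out IVM replicate 1 with IVO replicate 2 (highest in Ptx3) were added.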

Additional observations from a re-analysis of the deposited data

How the results depend on the processing

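The numbers of acetylation genes lower and higher in IVM (6 and 2) were 5 to 7 and 1 to 3 when each library was left out in turn, and those over all genes (1583 and 1595) were 1177 to 1617 and 1205 to 1634. Among acetylation genes, 5 were higher with no filter (1746 of 16479 over all genes), 4 with equal summed FPKM, and 1 each with a filter at a mean of 5 FPKM, with quantile normalization (1426 over all genes) and at an adjusted p under 0.01. Over all genes, 835 were higher and 1392 lower with the filter at 5, and 1019 higher and 1009 lower at an adjusted p under 0.01. Without IVM replicate 1 and IVO replicate 2, the libraries with the most Ptx3 (the summed cumulus and granulosa markers were highest in IVM replicate 2 and IVO replicate 2), 3 acetylation genes were lower and 1 higher, against 916 and 1035 over all genes; with only 2 libraries against 2, Ep300 (log2 difference -0.37, limma adjusted p = 0.151), Crebbp (-0.69, 0.108), Brd1 (-0.38, 0.0586), Kat2a (0.49, 0.172) and Arid4a (0.83, 0.0644) missed the threshold, and the difference of Sirt1 was 0.03. Equal summed FPKM moved the median log2 difference of all tested genes from -0.02 to 0.10, so small differences are relative to the scaling used; the split over all genes was then 1949 higher and 1167 lower. The ratio of Kat2a to Kat2b reversed, to -0.12, with an added 0.01; the cause was not tested. With each library left out in turn, the difference in ratio ranged from -1.47 to -1.28 for Kat6a over Kat6b, -1.03 to -0.62 for Kat7 over Kat5, 0.13 to 0.32 for Ep300 over Crebbp, 0.46 to 0.64 for Kat2a over Kat2b, 0.03 to 0.24 for Brd2 over Brd3 and 0.50 to 1.28 for Hdac1 over Hdac2.

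Same-numbered libraries of both groups correlated in their deviations by 0.0777, 0.0599 and 0.0900, so the numbers were not taken as pairs, although each library correlated best with its own number, a hint from the data and not the design. With a replicate block, 7 acetylation genes were lower and 2 higher, Hdac2 being the gene gained (limma adjusted p = 0.0195), and 1558 and 1626 over all genes. Elp3 and Slc25a1 missed the threshold with an added 0.01 (adjusted p = 0.0746 and 0.0529), and Elp3 also by the q-value in the authors' deposited table (0.138). The lack of read counts limits what can be said of genes under 1 FPKM.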
